A study of Mus musculus with 6 samples.

Results

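Retrotransposons are genomic repeats that copy themselves through RNA, and germ cells hold them down by several routes beside the Piwi-bound small RNAs. Some proteins act on chromatin, where methylation of histone H3 on lysine 9 and of DNA keeps the repeats from being transcribed. Others act later, on the RNA, on the DNA copy made from it or on the encoded proteins. The 10 genes described here are members of these other routes: the germ-cell pair Tex19.1 and Tex19.2, the silencing factors Setdb1, Trim28, Hells and Morc1, and the nucleic acid editing or degradation genes Adar, Trex1, Samhd1 and Mov10. They were taken by name from the array's platform annotation, among 19938 genes measured in all. Each of the 10 has 1 probe set, which names no other gene, and none of those probe sets repeats the values of another.

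Fully-grown oocytes at the germinal vesicle stage, which are described as transcriptionally silent, were collected from 23-day-old mice with C57BL/6J and C3HeB/FeJ given as the strains. The Marf1 mutant group was Marf1 ENU/ENU, with a chemically induced mutation on both copies of Marf1, an RNA-binding protein gene that oocytes need for meiosis, and the wild-type group was Marf1+/+. Priming was the same in both groups, 5 IU of eCG, a hormone that stimulates follicle growth, given at 21 days of age for 46 hours, and cumulus cells were stripped off the oocytes. Each group had 3 samples, with 1 array each, and neither the number of females per sample nor a separate origin of the samples is stated, so the p-values rest on a spread between samples that could be technical.

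Values are log2 expression from RMA, a summary meant to put all arrays on a common scale. Each change is therefore relative to the rest of the array, and more or less total RNA per oocyte would not show. The deposited arrays were not fully level, with medians of 4.56 to 4.76 over all probe sets. Mutant replicate 3 had the highest median, 4.76, and the smallest SD over probe sets, 2.04, against 2.14 to 2.20 in the other arrays. Fewer transcripts per oocyte and fewer oocytes with the transcript cannot be told apart in these bulk samples. Marf1 itself had 5.98, 6.40 and 6.16 in the mutant arrays against 9.21, 9.16 and 9.31 in the wild-type arrays, a log2 fold change of -3.05 (SE 0.15, limma adjusted p = 1.0e-04). Mutant replicate 3 correlated at 0.970 to 0.973 with the other mutant arrays over all probe sets, where the remaining same-genotype pairs lay at 0.984 to 0.986, and results that rest on it are given with and without it. All 10 oocyte markers, among them Gdf9, Bmp15 and Zp3, lay above 4.525, the level that 95% of olfactory and vomeronasal receptor genes stay below, in both genotypes, and 0 passed the limma test (1 at unadjusted p under 0.05). That value is called the receptor-gene level below and stands for a dim signal.

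Over the 10 genes, 2 passed the threshold of an adjusted p under 0.05 in limma and both were higher in the mutant, namely Tex19.2 and Tex19.1, while 8 did not pass. Of all genes 10.4% passed, 6.40% higher and 4.04% lower, and among the 11610 genes above the receptor-gene level in both genotypes 15.5% passed. Of the called genes 61.3% were higher as deposited, 74.6% after cyclic loess normalization and 55.9% after quantile normalization, so this share depended on the normalization. At an unadjusted p under 0.05 in limma 3 of the 10 were higher and 1 lower, where 11.0% and 13.5% of all genes were. The median log2 fold change was 0.27 over the 10 genes and -0.04 over all genes.

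The Tex19 pair carries the largest change, and its members stand side by side on chromosome 11 with 0 protein-coding genes between them in RefSeq (GRCm38.p6). The bases before each start site are shown here as a description, and a link between them and the size of either rise was not tested. They are the 250 bases upstream of the RefSeq start, from chr11:121118678-121118927 on the minus strand for Tex19.2 and from chr11:121145893-121146142 on the plus strand for Tex19.1. Capitals mark the dinucleotide CG, the site of DNA methylation, which reads the same on both strands.
Tex19.2: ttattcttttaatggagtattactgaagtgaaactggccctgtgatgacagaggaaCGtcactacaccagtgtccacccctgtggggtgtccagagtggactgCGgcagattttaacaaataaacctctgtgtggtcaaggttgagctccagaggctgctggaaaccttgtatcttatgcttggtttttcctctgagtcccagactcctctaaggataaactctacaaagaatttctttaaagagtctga
Tex19.1: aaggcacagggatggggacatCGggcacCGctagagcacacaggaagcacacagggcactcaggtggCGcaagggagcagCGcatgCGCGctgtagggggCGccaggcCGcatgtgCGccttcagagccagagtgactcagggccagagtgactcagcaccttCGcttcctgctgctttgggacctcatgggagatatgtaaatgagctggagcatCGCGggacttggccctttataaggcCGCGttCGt
The Tex19.2 window holds 2 CG and the Tex19.1 window 15. Among the 32851 RefSeq windows of this length, 81.2% hold at least 2 and 27.3% at least 15, with a median of 6. The windows of the other members in the table range up to 28 CG, found before Hells, and the 2 of Tex19.2 are the fewest among 13 windows of 9 members. The arrays measure RNA, so methylation of these sites was not measured.

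Tex19.2, the less studied paralog, known in mouse from germ cells, had 7.07, 7.02 and 6.79 in the mutant arrays against 4.68, 5.00 and 4.02 in the wild-type arrays. All mutant values lay above all wild-type values, with a gap wider than the whole spread of either genotype. The log2 fold change was 2.39 (95% interval 1.81 to 2.97, SE 0.25), or 5.25-fold (limma adjusted p = 0.00142), and 0.878% of all genes had a larger change in either direction. The wild-type mean of 4.57 ± 0.50 (SD, n = 3) lies at the receptor-gene level, and wild type replicate 3 lies below it. The rise may therefore be understated, since no background measure was used here. Tex19.2 passed in each of the 6 fits that left out 1 array (adjusted p = 0.00258 to 0.00994) and missed the threshold only without moderation of the variance (adjusted p = 0.0506), among 15 alternatives.

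Tex19.1, whose loss in mouse releases endogenous retroviruses in the testis and whose product binds the ubiquitin ligase Ubr2, had 8.04, 8.06 and 8.0 in the mutant arrays. The wild-type arrays had 7.53, 7.21 and 7.55. The mutant values had an SD of 0.03 and lay above every wild-type value, by a modest distance. The log2 fold change was 0.60 (SE 0.15, 95% interval 0.26 to 0.94, 1.52-fold higher, limma adjusted p = 0.0484). This call lies close to the threshold: it was lost in all 6 fits that left out 1 array (adjusted p = 0.0666 to 0.148), and after median centring (0.0878), with the replicate number as a block (0.106) and without moderation of the variance (0.0951). Its direction held in all 15 alternatives, with a log2 fold change of 0.49 to 0.76.

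As a description, the measured rise of Tex19.2 was 1.79 larger than that of Tex19.1 on the log2 scale, a value that the dim wild-type signal of Tex19.2 may understate. This difference was not tested: no limma fit was made on it, and an exact permutation over 3 against 3 arrays cannot go below p = 0.10. The paralogs have related sequences, and how far each probe set also reads the other gene was not tested.

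**Figure D1:**
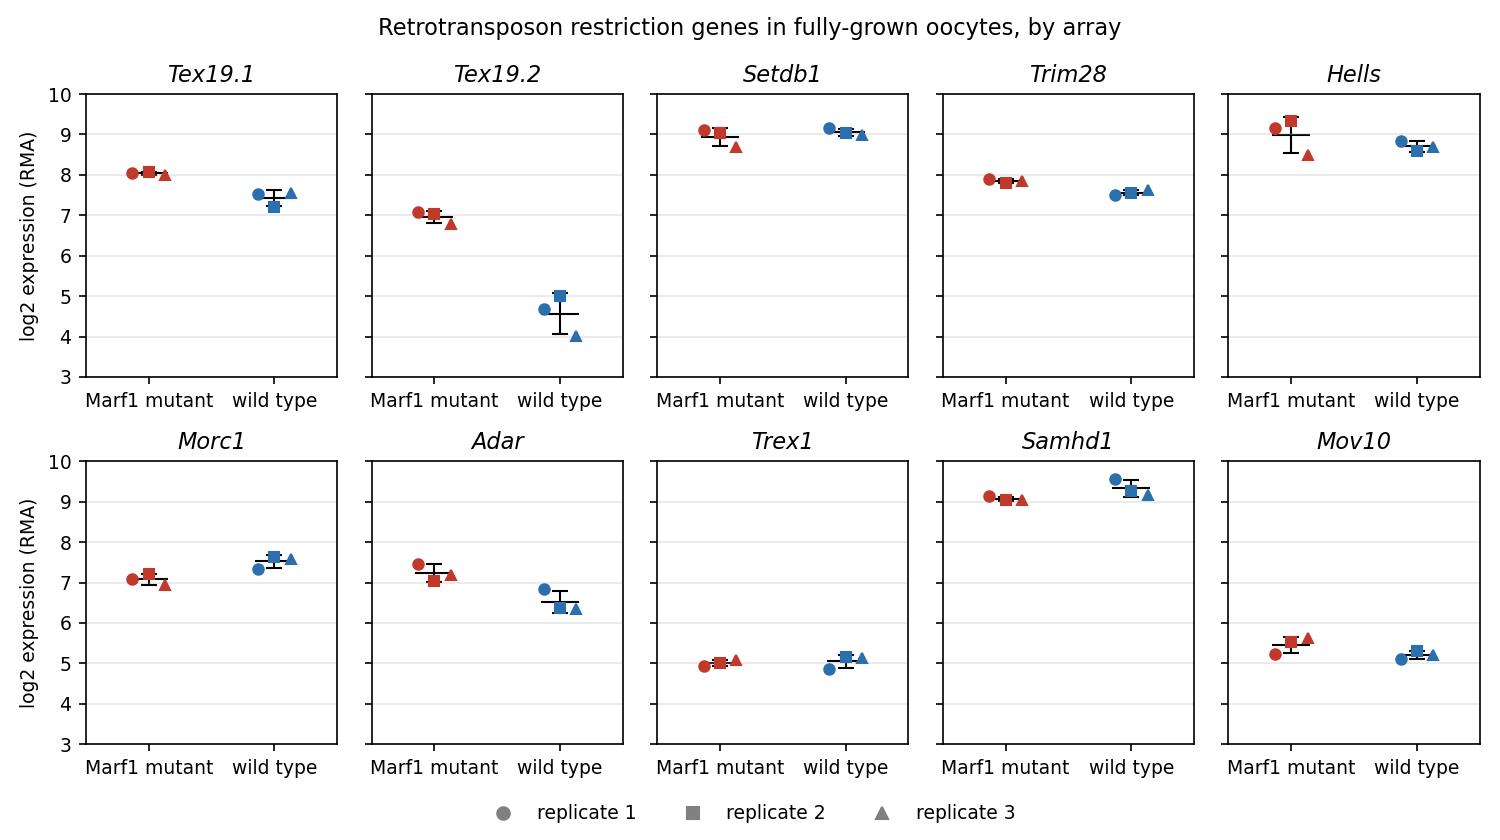
Log2 expression of the 10 genes on each array, 3 Marf1 mutant arrays at the left of each panel and 3 wild-type arrays at the right, with the mean and SD in black and the marker shape giving the replicate number. The mutant arrays of Tex19.2 lie at 6.79 to 7.07 and its wild-type arrays at 4.02 to 5.00, while the points of Setdb1, Hells, Trex1 and Mov10 overlap between genotypes. Levels are not comparable between genes.

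The genes around the pair, 4 on each side by RefSeq order, were chosen by position with the values known. Of these 8 neighbours 1 was higher, 1 was lower and 6 did not pass, with log2 fold changes of -0.60 to 0.53 among the 6, where 10.4% of all genes passed. Cd7, a surface protein gene of lymphocytes, fell to 6.75 ± 0.26 in mutant oocytes, against 7.96 ± 0.13 in wild-type oocytes (SD, n = 3 each). Its log2 fold change was -1.20 (SE 0.17, limma adjusted p = 0.00571). Csnk1d, a casein kinase gene, had 7.66 ± 0.10 in the mutant and 6.92 ± 0.25 in wild type, a log2 fold change of 0.74 (SE 0.17, limma adjusted p = 0.0370). The Csnk1d call was lost in 5 of the 6 fits that left out 1 array, and it held only without mutant replicate 3 (adjusted p = 0.0498). Immediately next to the pair, Sectm1a and Uts2r did not pass (limma adjusted p = 0.575 and 0.960). Of the 8 neighbours 2, Sectm1a and Sectm1b, lay below the receptor-gene level in both genotypes, so a change in them may not be visible here.

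**Figure D2:**
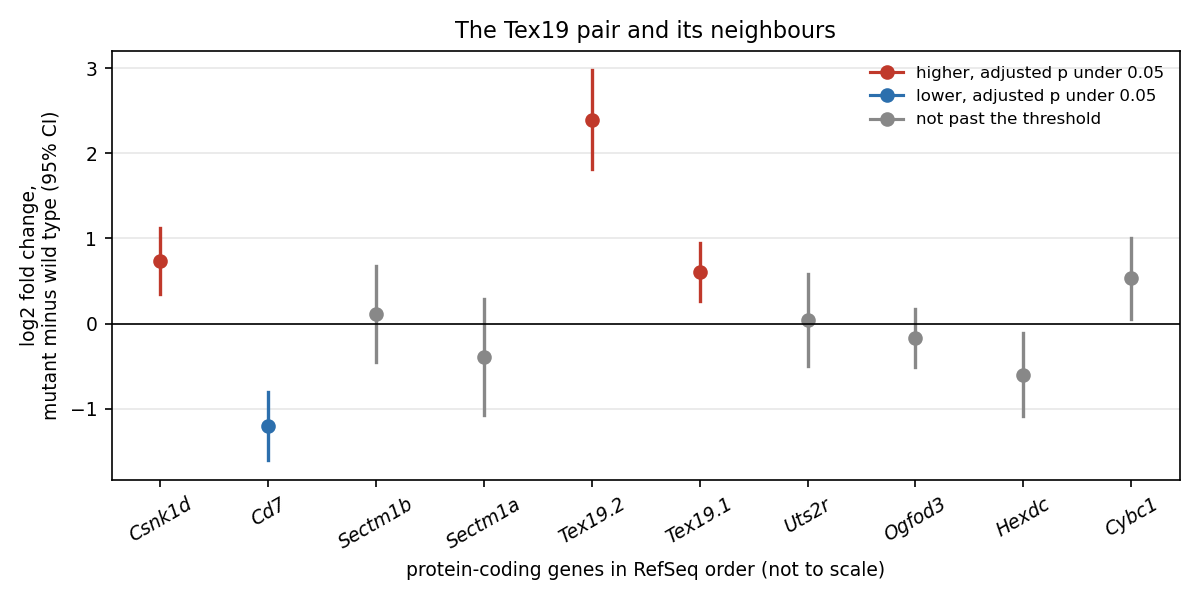
Log2 fold change, mutant minus wild type, with its 95% interval from limma for the Tex19 pair and 4 protein-coding neighbours on each side, in gene order and not to scale. Tex19.2 at 2.39 stands above every neighbour, and Cd7 at -1.20 is the only one of the 10 genes called lower.

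By the distance between centred array values (root mean square over the 6 arrays), the 3 genes most like Tex19.2 were Grpel2, a mitochondrial co-chaperone gene, at 0.09, Ncbp1, the large subunit of the nuclear cap-binding complex, at 0.15, and AW209491 at 0.16 on the log2 scale. Grpel2 had 7.80, 7.73 and 7.53 in mutant arrays against 5.65, 5.73 and 4.77 in wild-type arrays. As in Tex19.2, wild type replicate 3 was the lowest wild-type array and mutant replicate 3 the lowest mutant array. The 6 arrays fall into the 2 genotypes, so any gene with a like rise comes close by this measure.

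None of the 4 silencing factors passed the limma test, 0 of 4, where 10.4% of all genes passed. A set of 4 genes is too small to set against that share. A missed threshold does not show that a gene did not change, and the 95% intervals give the range of change that these arrays leave possible. Trim28, the corepressor that KRAB zinc finger proteins bring to endogenous retroviruses, had 7.89, 7.79 and 7.84 in mutant arrays. Wild-type arrays had 7.50, 7.56 and 7.62. The genotypes did not overlap, and the log2 fold change was 0.28 (95% interval -0.01 to 0.57, limma adjusted p = 0.278). Setdb1, the histone H3 lysine 9 methyltransferase that Trim28 recruits, had 9.11, 9.03 and 8.68 in the mutant and 9.15, 9.03 and 8.98 in wild type. Apart from mutant replicate 3 the values of Setdb1 lie almost on top of each other, and the log2 fold change was -0.11 (95% interval -0.48 to 0.26, limma adjusted p = 0.801), or 0.02 without that array.

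Hells, a chromatin remodeller that repeats need for their DNA methylation, had 9.15, 9.34 and 8.49 in the mutant against 8.84, 8.58 and 8.69 in wild type. Mutant replicate 3 was the lowest of the 6 arrays and the other mutant arrays were the highest. With all arrays the log2 fold change was 0.29 (95% interval -0.24 to 0.82, limma adjusted p = 0.596), and without mutant replicate 3 it was 0.54 (adjusted p = 0.0834). Morc1, an ATPase of the Morc family needed for transposon silencing in the male germ line of mouse, had lower values in the mutant. Its mutant arrays had 7.08, 7.22 and 6.94 against 7.34, 7.64 and 7.58 in wild type, with no overlap. The log2 fold change was -0.44 (95% interval -0.79 to -0.09), which passed an unadjusted p under 0.05 but not the adjustment over all probe sets (limma adjusted p = 0.144).

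The nucleic acid genes also had 0 of 4 past the threshold, again too few genes to set against the 10.4% of all genes. Adar, the enzyme that edits adenosine to inosine in double-stranded RNA, came nearest. It had 7.47, 7.04 and 7.18 in mutant arrays against 6.83, 6.37 and 6.34 in wild-type arrays, with no overlap, though mutant replicate 2 lay only slightly above wild type replicate 1. Its log2 fold change was 0.72 (SE 0.19, 95% interval 0.27 to 1.16, 1.64-fold higher, limma adjusted p = 0.0676), and its unadjusted p was 0.00609. It was called higher under 4 of 15 alternatives: cyclic loess normalization (adjusted p = 0.0325), probe sets above the median level (0.0314), the mean of each gene's rows (0.0200) and array weights (0.0464).

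Samhd1, which breaks down the nucleotides that reverse transcription uses, had 9.13, 9.03 and 9.03 in the mutant against 9.57, 9.27 and 9.16 in wild type. The mutant arrays were all lower by a small margin, with a log2 fold change of -0.27 (95% interval -0.63 to 0.09, limma adjusted p = 0.408). Mov10, an RNA helicase found with LINE-1 ribonucleoproteins in human cells, had 5.24, 5.52 and 5.62 in the mutant against 5.10, 5.30 and 5.20 in wild type. The genotypes overlapped, with a log2 fold change of 0.26 (95% interval -0.10 to 0.62, limma adjusted p = 0.432). Trex1, an exonuclease that degrades cytosolic DNA, had 4.93, 5.02 and 5.08 in the mutant against 4.86, 5.15 and 5.14 in wild type. Its mutant arrays lay inside the wild-type range, and the interval of -0.37 to 0.29 around a log2 fold change of -0.04 (limma adjusted p = 0.933) leaves out a 2-fold change in either direction. Both genotype means of Trex1 lay 0.48 to 0.52 above the receptor-gene level and those of Mov10 0.67 to 0.93, so a change in either may be understated.

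**Figure D3:**
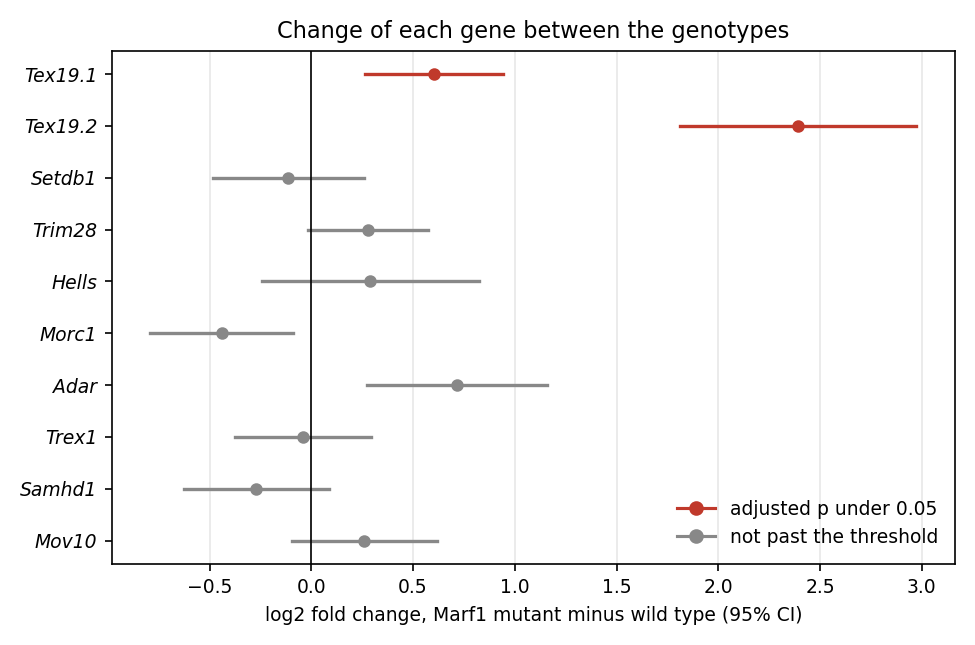
Log2 fold change of each of the 10 genes, Marf1 mutant minus wild type, with its 95% interval from limma. The intervals of Tex19.2 (1.81 to 2.97), Tex19.1, Adar and Morc1 do not reach 0, and of these only Tex19.2 and Tex19.1 pass the adjusted threshold.

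Counted without a model, the 3 mutant values lay above all wild-type values in 4 of the 10 genes (Tex19.2, Tex19.1, Adar and Trim28) and below them in 2 (Morc1 and Samhd1). Among all genes 12.9% lay above and 17.7% below, 30.7% together. Samhd1 and Trex1 are best known from immune cells. Of 8 measured markers of blood, immune and endothelial cells 4 lay below the receptor-gene level in both genotypes, namely Ptprc, Lyz2, Csf1r and Cdh5. Another 3, Cd68, Cd3e and Pecam1, lay above it in both genotypes, and Tie1 lay above it in wild type only. The mean level of the 8 was 4.32 to 4.49 in mutant arrays and 4.38 to 4.60 in wild-type arrays, and 1 of them, the endothelial adhesion gene Pecam1, was called lower (6.20 ± 0.34 in the mutant and 7.27 ± 0.05 in wild type, SD, n = 3 each, limma adjusted p = 0.0144), a call lost without wild type replicate 1 or 3 (adjusted p = 0.0610 and 0.0640). Of 9 measured cumulus and granulosa markers 0 passed in limma (0 at unadjusted p under 0.05). In both genotypes 5 lay below the receptor-gene level, while Foxl2, Inhba and Has2 lay above it, at means of 4.76 to 5.14. The mean level of the 9 was 4.15 to 4.54 in mutant arrays and 4.39 to 4.48 in wild-type arrays.

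Partners of the silencing factors and of the nucleic acid enzymes were examined as 2 lists. Of 35 measured heterochromatin partners 3 rose and 0 fell in limma, with 8 higher and 6 lower by an unadjusted p under 0.05. That is 8.57% called, against 10.4% of all genes, and the median log2 fold change was -0.09. In both genotypes 33 of the 35 lay above the receptor-gene level. Among all genes above it in both, 15.5% were called and the median log2 fold change was -0.09. Cbx3, which encodes HP1 gamma, a reader of methylated histone H3 lysine 9, had 9.38, 9.49 and 8.99 in the mutant against 7.05, 7.20 and 7.10 in wild type. All mutant arrays of Cbx3 lay far above the wild-type arrays, 4.50-fold (log2 fold change 2.17, SE 0.17, limma adjusted p = 3.81e-04). Cbx3 has 7 rows on the array, and the other 6 were also higher, by 1.23 to 2.33. Of those 6, 2 had identical means (6.58 in the mutant and 5.16 in wild type) and the same log2 fold change of 1.41. Which locus each Cbx3 row reads was not tested, and the rows are not independent measurements. The related HP1 genes Cbx1 and Cbx5 did not pass, with log2 fold changes of -0.13 and -0.27, and are named with their values known.

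Morc3, a relative of Morc1 that silences endogenous retroviruses in mouse embryonic stem cells, had 8.92, 8.97 and 8.34 in mutant arrays against 7.68, 7.70 and 7.50 in wild-type arrays. The genotypes did not overlap, and the rise was 2.17-fold (log2 fold change 1.12, SE 0.20, limma adjusted p = 0.0142). The Morc3 call was lost in 4 of the 6 fits that left out 1 array (all but those without mutant replicate 3 and without wild type replicate 2), at an adjusted p of 0.0504 to 0.0659 in those 4. Trim33, a relative of Trim28, had 9.51, 9.37 and 9.03 in the mutant against 8.56, 8.73 and 8.51 in wild type, a log2 fold change of 0.70 (SE 0.17, limma adjusted p = 0.0449). Trim33 held only without mutant replicate 3 (adjusted p = 0.0172) among those 6 fits. Trim24, the third of these relatives, was lower on every mutant array (8.04 ± 0.12 in the mutant and 8.59 ± 0.07 in wild type, SD, n = 3 each) and missed the threshold (log2 fold change -0.55, limma adjusted p = 0.0501). Dnmt1, the maintenance DNA methyltransferase, had a log2 fold change of -0.51 (limma adjusted p = 0.0659), and Cdca7, which works with Hells, 0.99 (limma adjusted p = 0.0820). Trim24, Dnmt1 and Cdca7 were chosen after their values were seen, and were called under 5, 3 and 2 of the 15 alternatives, in the same direction. Without mutant replicate 3 the heterochromatin list had 4 higher and 0 lower.

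Of 28 measured nucleic acid partners 3 rose and 0 fell in limma, with 4 higher and 6 lower by an unadjusted p under 0.05. The share called was 10.7%, against 10.4% of all genes, and the median log2 fold change was -0.01. In both genotypes 10 of the 28 lay below the receptor-gene level and 17 above it, where 15.5% of genes above it in both were called. Both Tut4 and Tut7, enzymes that add uridines to RNA tails and restrict LINE-1 together with MOV10 in human cells, were higher. Tut4 had 6.23, 5.63 and 5.87 in the mutant against 4.24, 4.48 and 4.11 in wild type, a 3.10-fold rise (log2 fold change 1.63, SE 0.19, limma adjusted p = 0.00228). Its wild-type mean lay below the receptor-gene level, so this rise may be a lower bound. Tut7 had 8.41, 8.26 and 8.10 in the mutant against 7.30, 7.49 and 7.38 in wild type, a 1.82-fold rise (log2 fold change 0.87, SE 0.14, limma adjusted p = 0.0111).

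Neither gene overlapped between genotypes. The Tut4 call held in all 6 fits that left out 1 array, and the Tut7 call in 4 of them, with adjusted p of 0.0567 and 0.0543 without wild type replicates 1 and 3. Apobec2, a relative of the cytidine deaminases, had 5.58, 5.87 and 5.63 in the mutant against 5.04, 4.82 and 5.06 in wild type. Its log2 fold change was 0.72 (SE 0.15, limma adjusted p = 0.0271), and it held in 1 of those 6 fits, the one without mutant replicate 3 (adjusted p = 0.0382). Ubr2, the ubiquitin ligase bound by Tex19.1, had a log2 fold change of 0.41 (limma adjusted p = 0.245) and did not pass. Its other row, dimmer and at 4.40 in the mutant and 4.54 in wild type, had -0.14 (limma adjusted p = 0.770), and the mean of both rows gave 0.14 (adjusted p = 0.683). Mov10l1, the germ-cell relative of Mov10, had -0.40 (limma adjusted p = 0.149). Ubr2 and Mov10l1 are named for their tie to members and were chosen with their values known. The list had 3 higher and 0 lower without mutant replicate 3.

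**Figure D4:**
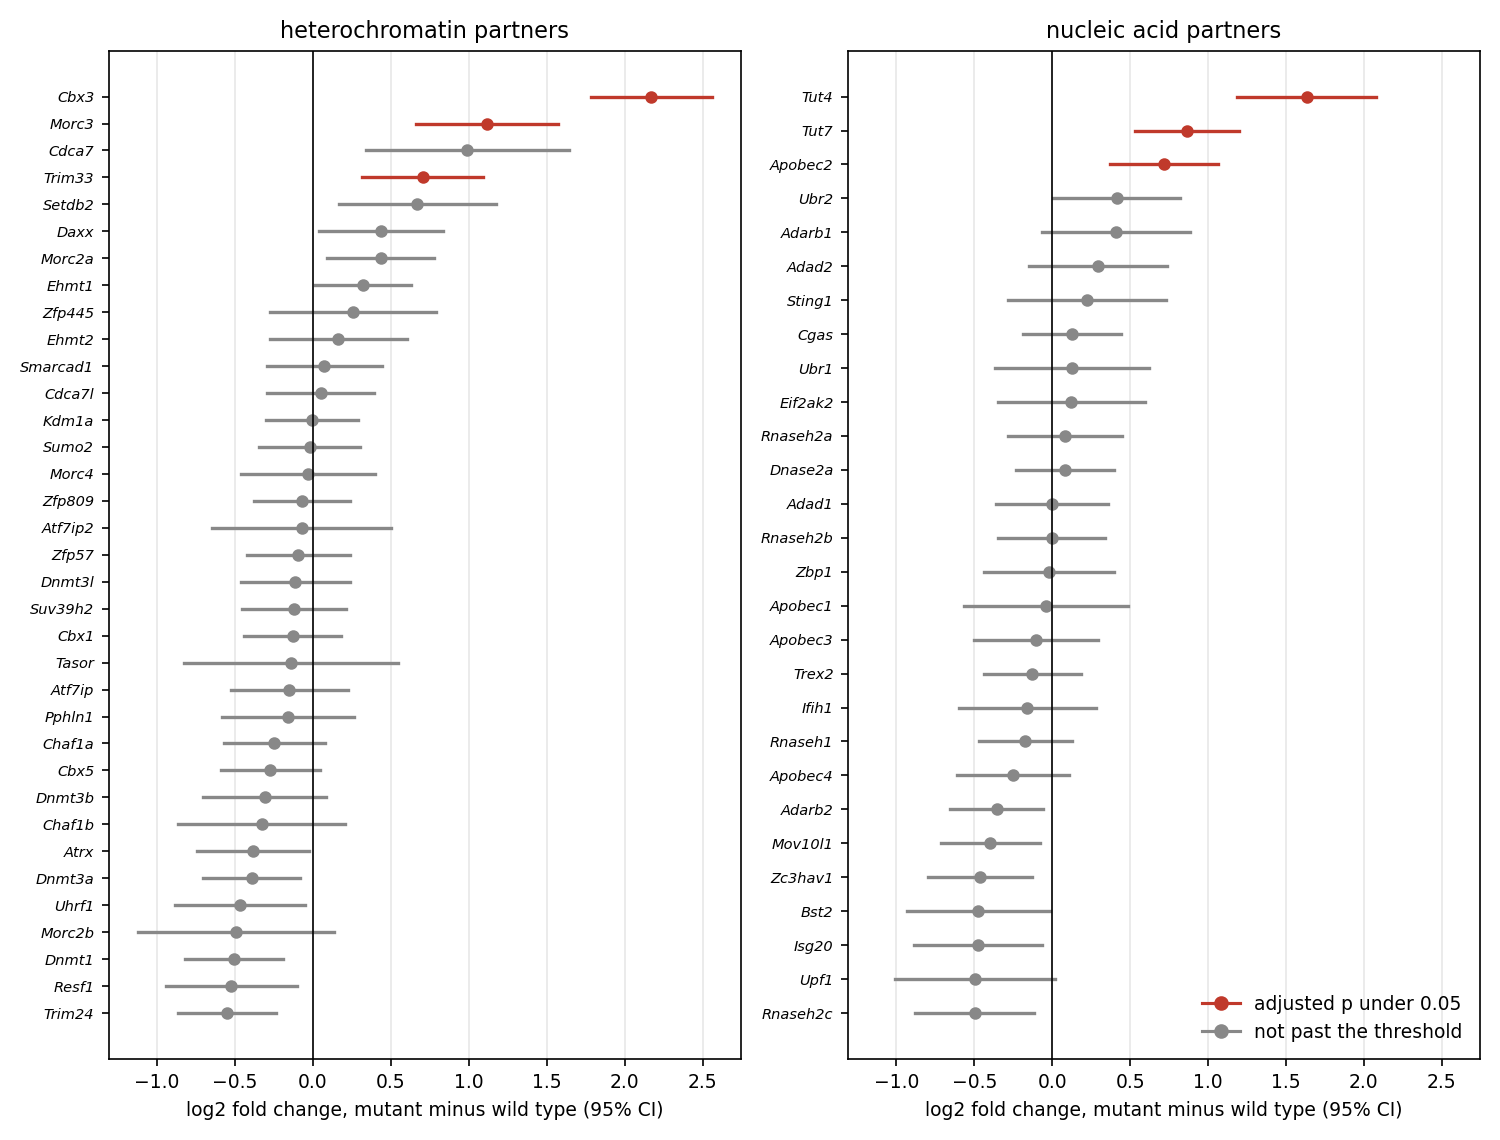
Log2 fold change, mutant minus wild type, with its 95% interval from limma for the 35 heterochromatin partners (left) and 28 nucleic acid partners (right), sorted by size. Cbx3 (2.17), Morc3 and Trim33 on the left and Tut4 (1.63), Tut7 and Apobec2 on the right are the 6 genes past the threshold, and 0 genes are called lower.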

How the data were processed

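The authors deposited log2 expression for 35556 probe sets on each array, and these values were used without change. Per the submitters' processing notes the authors used GCOS, Affymetrix Expression Console 1.1 and RMA. The array's genome build is not stated. Genes were named from the platform annotation (21789 rows naming 1 gene, 1621 naming several and 12146 not named here), with symbols from RefSeq (GRCm38.p6) by Entrez ID (21698 matched, 91 did not). For genes with several rows the row of highest mean over the 6 arrays stood for the gene.

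The mutant and wild-type arrays were compared in R 4.3.3 with limma 3.58.1 (lmFit, eBayes, genotype as the only term, two-sided, Benjamini-Hochberg over all rows, threshold 0.05). The number of arrays limits the precision. The fit was tested on simulated data. The members, lists and rules were chosen with earlier results of these data known. Named genes were the members, Marf1, up to 4 called genes per partner list and the 3 genes most like the member with the largest change, with other names marked as chosen later. Of 69 listed partners 63 had a row. Members and partners were refitted under 15 alternatives. Upstream sequences are RefSeq's and were matched by symbol (9 of 10 members, none for Morc1).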

Additional observations from a re-analysis of the deposited data

How the results depend on the processing

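With as-deposited values 2 members and 6 partner genes were higher, and 0 of either were lower. Members higher numbered 1 after median centring, 1 with the replicate block, 0 without moderation of the variance, 1 in each fit that left out 1 array, and 3 with cyclic loess, rows above the median level, the mean of a gene's rows or array weights. Partner genes higher numbered 2 without moderation, 2 to 7 leaving out 1 array, 4 with median centring or the replicate block, 7 with cyclic loess, rows above the median level or array weights, and 8 with the mean of a gene's rows. Partner genes lower numbered 1 with array weights or quantile normalization and 2 with the mean of a gene's rows, with rows above the median level or with the trend and robust prior. Of 150 member values under alternatives, 130 kept direction and side of the threshold, 1 (Trex1 without mutant replicate 1) was exactly 0, 10 lost it (9 of Tex19.1 and 1 of Tex19.2) and 4, all of Adar, gained it. The 5 that turned sign were of genes near 0: Setdb1 had 0.028 after cyclic loess and -0.20 to 0.017 leaving out 1 array, and Trex1 had 0.0077 after cyclic loess and -0.14 to 0.01 leaving out 1 array. The partner Cbx1 had 0.026 after cyclic loess. The cause of these shifts was not tested. The sample labels share a number and state no pairing. Same-numbered arrays deviated together at r of 0.15, -0.10 and 0.03, which cannot tell whether they shared a batch. The replicate block was therefore fitted only as an alternative. It changed the calls of Tex19.1, Trim33, Apobec2 and Csnk1d (adjusted p = 0.106, 0.0728, 0.0827 and 0.0906). No replicate group has 4 or more arrays, so single arrays were not tested as outliers.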
